A study of Sus scrofa with 6 samples.

Results

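Chromosome 13 of the pig carried 21084 of the 88582 methylation-enriched regions found on the 5 chromosomes whose peak lists were complete in every library, a share of 23.8%. The regions were obtained by taking every chromosome 13 peak of the 6 libraries, 74959 in all, and joining peaks that overlapped by at least 1 bp. For each region the libraries with a peak, the sequenced tags in those peaks, the length they covered and their highest fold enrichment were kept. The peaks reached from position 32075 to position 218632340, which gave 219 windows of 1 Mb. Chromosome 13 was chosen as the one of these 5 chromosomes with the fewest peaks per Mb, and its rank among all pig chromosomes is not known. Its low density is thus a description and is used below only to show how the peaks were arranged.

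The libraries came from genomic DNA of longissimus dorsi, a long muscle that runs along the spine, of female pigs of 2 pure breeds, with 3 libraries from Yorkshire and 3 from Wannanhua. Yorkshire is a lean Western breed and Wannanhua an indigenous Chinese breed, and no treatment is given for either. The labels number the libraries but give neither age nor an animal for each, so every p-value refers to the spread among these libraries, part or all of which may be technical. Whole muscle holds several cell types, and a region enriched in part of the cells cannot be told apart from one enriched weakly in all of them.

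DNA methylation in mammals is the addition of a methyl group to cytosine, mostly where cytosine is followed by guanine, and most such sites in the genome are methylated. In methylated DNA immunoprecipitation sequencing (MeDIP-seq) sheared DNA is enriched with an antibody against methylated cytosine, so a fragment is pulled down more readily when it holds many methylated sites. A peak therefore marks a stretch that is both rich in such sites and methylated, and a stretch without a peak can be poor in sites, unmethylated, or short of reads. Pig chromosome 13 is one of the acrocentric chromosomes, whose centromere lies close to one end.

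The libraries differed in ways that touch every comparison of the breeds. After removal of duplicates 6728444 to 17108367 tags remained per library, with the fewest in Yorkshire 3 and Wannanhua 1. The share of redundant tags was highest in Yorkshire 3 (0.69) and lowest in Wannanhua 1 (0.29). The peak caller's estimate of fragment length for Yorkshire 1, 2 and 3 was 150, 169 and 97 bp, and for Wannanhua 1, 2 and 3 it was 179, 193 and 202 bp, so the breeds did not overlap in it and its part in a breed difference cannot be told apart from breed. The smallest chromosome 13 peak held 7 to 13 tags, and the lack of a peak means too few tags for the caller at the depth of that library, not an absence of tags.

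Within every library chromosome 13 was sparser than its nearest neighbour in density, chromosome 1, by a small margin. Yorkshire 1, 2 and 3 had 61.9, 69.5 and 52.7 chromosome 13 peaks per Mb, and Wannanhua 1, 2 and 3 had 36.5, 62.7 and 59.6. Over the 6 libraries chromosome 13 had 57.1 ± 11.5 peaks per Mb and chromosome 1 had 59.9 ± 12.2 (SD, n = 6). The difference within a library was -2.78 ± 0.827 peaks per Mb, with the same sign in 6 of 6 libraries, and it carries no test because the chromosome was chosen for its density. Chromosome 1 was thus close to chromosome 13, whereas the difference was -16.8 to chromosome 11, -30.1 to chromosome 10 and -43.0 peaks per Mb to chromosome 12, each in 6 of 6 libraries. Among peaks with a score of at least 100, a stricter cutoff on the significance of the peak, the difference to chromosome 1 was -0.574 and had that sign in 5 of 6 libraries.

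**Figure D1:**
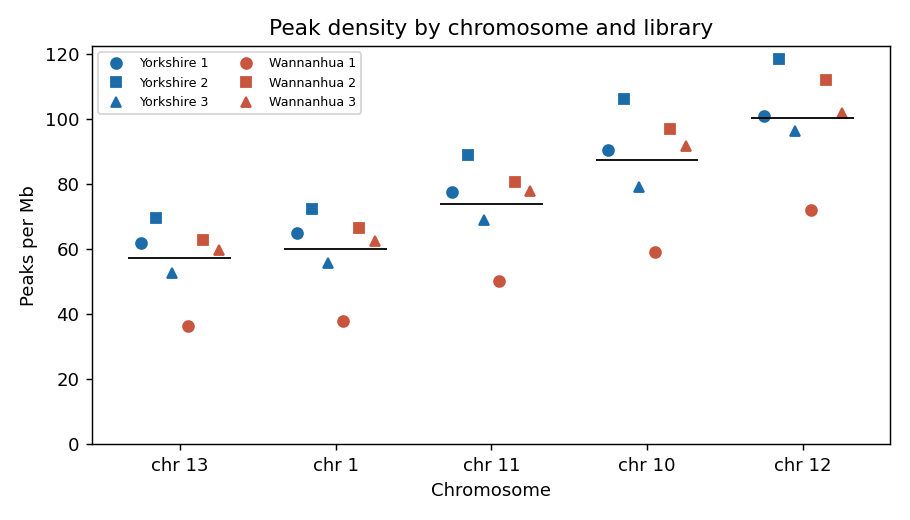
Peaks per Mb (vertical axis) on each of the 5 chromosomes complete in every list (horizontal axis, ordered by their mean), with 1 point per library and a line at the mean of the 6 libraries. Chromosome 13 is lowest in each library, the points of chromosomes 13 and 1 lie within a few peaks of each other, and Wannanhua 1 is the lowest library on every chromosome.

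The few peaks of chromosome 13 were also narrower and stood higher above their local background than those of the other chromosomes. Their median width over the 6 libraries was 471 ± 100.4 bp, a difference of -7.17 bp to chromosome 1 and of -104 bp to chromosome 12. Their median fold enrichment, the peak caller's ratio of tags to the local background, was 15.5 ± 4.70 (SD, n = 6) against 15.2 ± 4.62 on chromosome 1 and 10.9 ± 2.79 on chromosome 12. Both differences held in 6 of 6 libraries against each of the 4 chromosomes and are given, like the density, as a description. Peaks covered 3.01% of chromosome 13, against 3.29% of chromosome 1 and 7.02% of chromosome 12.

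Regions on chromosome 13 lay far apart. The median gap between neighbouring regions was 5105 bp, against 4785 bp on chromosome 1 and 3026 bp on chromosome 12, and 49.3% of the gaps were within 5000 bp, against 71.3% on chromosome 12. In 63 places no library had a peak over more than 100000 bp. This was 28.8 per 100 Mb, close to the 26.3 on chromosome 1 and 27.4 on chromosome 11. Chromosomes 10 and 12 had 3.79 and 7.86. The longest such stretch of chromosome 1 was 248322 bp. On chromosome 13 the longest ran from 70008541 to 70192780 (184240 bp), and the next from 62605319 to 62784334 (179016 bp) and from 71607332 to 71785653 (178322 bp). Of the 10 longest, 3 lay between 171000001 and 173000000, a peak-poor stretch described below.

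Seen by 1 Mb window, the chromosome was a sparse floor broken by a small number of dense islands. A window held a median of 53.7 peaks per library (mean of the 6 libraries), and the windows ran from 11.3 to 136, a range of 12-fold. Windows at or above the 90th percentile of chromosome 13, 92.4 peaks, were taken as dense, and those at or below the 10th percentile, 27.5 peaks, as peak-poor. Each class held 22 windows by construction, which joined into 13 islands and 15 peak-poor stretches. The windows nearest the dense limit had 92.5 peaks inside and 92.3 outside, and those nearest the peak-poor limit 27.3 inside and 27.5 outside, so the limits cut through a continuous range. The same 92.4 peaks were reached by 12.7% of windows on chromosome 1, 39.8% on chromosome 11, 53.8% on chromosome 10 and 71.9% on chromosome 12, against 10.05% on chromosome 13.

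**Figure D2:**
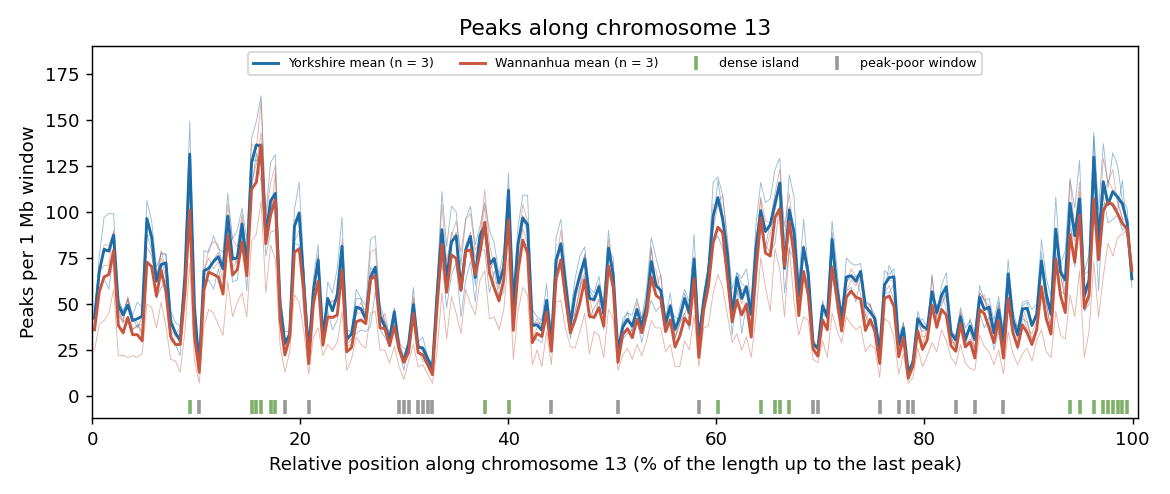
Peaks per 1 Mb window (vertical axis) along chromosome 13, with position as a percent of the length up to the last peak (horizontal axis); thick lines are breed means (n = 3), thin lines single libraries, and ticks at the bottom mark dense and peak-poor windows. Both breeds follow 1 profile, with the highest window at 136 peaks, peak-poor windows in several stretches inside the chromosome, and a rise over the last part of the chromosome.

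The densest island ran from 33000001 to 36000000 and held 598 regions. Its last window, from 35000001, had 128, 163 and 116 peaks in Yorkshire 1, 2 and 3 and 106, 160 and 143 in Wannanhua 1, 2 and 3, which was the highest mean of the chromosome. In Wannanhua 1, the library with the fewest peaks, this window and the 2 before it still held 106, 88 and 84 peaks. A single dense window stood from 20000001 to 21000000, with 122, 149 and 123 peaks in Yorkshire and 72, 122 and 109 in Wannanhua. It lay 1 window away from one of the sparsest, 22000001 to 23000000, with 19, 16 and 12 peaks in Yorkshire and 7, 17 and 15 in Wannanhua. The mean therefore changed from 116 to 14.3 peaks across a single intervening window. Further islands lay from 37000001 to 39000000, from 143000001 to 145000000 and, the longest, over 6 windows from 212000001 to 218000000. This last island held 1141 regions, and 14.3% of them had a peak in all 6 libraries, against 27.1% in the island from 33000001.

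The peak-poor stretches lay inside the chromosome. The sparsest window, 171000001 to 172000000, had 14, 13 and 12 peaks in Yorkshire 1, 2 and 3 and 7, 10 and 12 in Wannanhua 1, 2 and 3. The next window was also peak-poor, so that 43 regions lay in these 2 Mb. The longest peak-poor stretch covered 4 windows from 68000001 to 72000000 with 135 regions, and another covered 3 windows from 64000001 to 67000000 with 117. The breeds agreed in where these stretches lay: Spearman's rho of peaks per window between 2 libraries was 0.942 to 0.982 over the 219 windows, given as a description because windows share libraries and sequence.

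Peaks in dense windows were wider and less enriched than peaks in peak-poor ones. In dense windows the median fold enrichment was 12.2, 10.2 and 17.8 in Yorkshire 1, 2 and 3, and 12.3, 9.57 and 10.02 in Wannanhua 1, 2 and 3. In peak-poor windows the mean of the library medians was 22.0 ± 8.75 in Yorkshire and 15.6 ± 3.48 in Wannanhua (SD, n = 3), against 13.4 ± 3.93 and 10.6 ± 1.47 in dense windows. Across the 219 windows, Spearman's rho of the number of peaks was -0.814 with the median fold enrichment and 0.760 with the median width. The caller takes the background from the same library around the peak, so that neighbouring peaks enter the background of a peak in a dense window. The part of this in the fold was not tested.

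**Figure D3:**
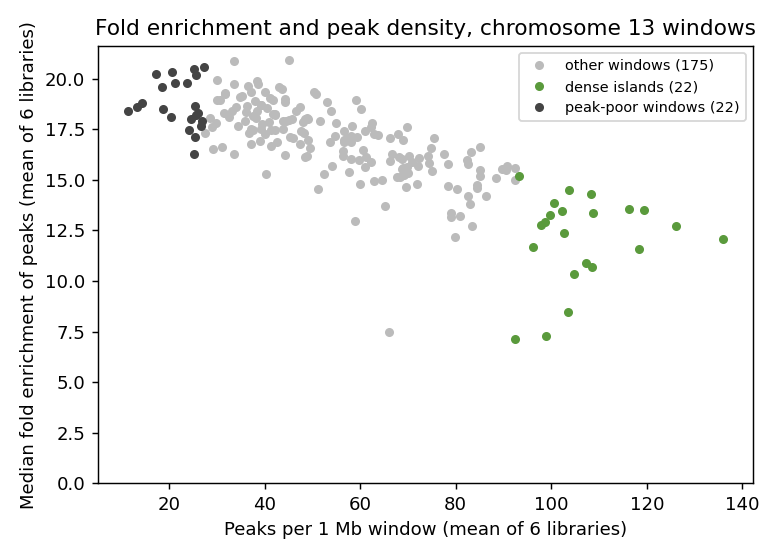
Median fold enrichment of the peaks of a 1 Mb window (vertical axis, mean of 6 libraries) against peaks in that window (horizontal axis, mean of 6 libraries), with 1 point per chromosome 13 window. Fold enrichment is lower where peaks are denser (Spearman's rho -0.814, 219 windows), and the last 3 complete windows of the chromosome are the lowest dense ones, with folds of 7.14 to 8.45.

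Most regions were called in some libraries and missed in others, and the share called in all of them was low near the end of the chromosome. Of the 21084 regions 5188 (24.6%) had a peak in 1 library and 5060 (24.0%) in all 6, with 10.9% to 15.5% at each number between. On the other 4 chromosomes 25.8% were in 1 library and 20.9% in all 6. Regions in all 6 libraries were 26.1% of the regions in peak-poor windows, 24.9% in the windows between and 20.1% in dense windows. The 9 islands before the last 20 Mb had 573 of 2330 regions in all 6 libraries (24.6%), close to the windows between, and the 4 islands in the last 20 Mb had 249 of 1754 (14.2%). This was not particular to islands. Over all windows from 200000001 onwards the share was 15.2%, against 22.3% to 30.5% in the bins of 20 Mb before. The window from 204000001, which was not dense, had 10.8%. A region in all 6 libraries had a median merged width of 727 bp, against 416 bp for a region in 1 library, and merging itself widens a region that has more peaks. Yorkshire 2 gave 1570 of the regions seen once and Wannanhua 1 gave 191. Of the 3275 regions with a peak in 5 libraries, 2073 (63.3%) lacked one in Wannanhua 1 and 567 (17.3%) in Yorkshire 3, the pair with the fewest tags.

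The strongest shared regions were short. The 10 with the highest mean fold enrichment were 483 to 873 bp wide and all exceeded 39.4, and 2 of them lay in the last 20 Mb. From 9363032 to 9363854 the fold enrichment was 55.1, 40.2 and 76.7 in Yorkshire 1, 2 and 3 and 29.4, 38.3 and 26.8 in Wannanhua 1, 2 and 3. From 192019160 to 192019642 it was 37.6, 30.2 and 47.7 in Yorkshire and 46.9, 39.3 and 40.5 in Wannanhua, a mean of 40.4 ± 6.47 (SD, n = 6). The first of these was lower in every Wannanhua library than in any Yorkshire library, whereas in the second the breeds overlapped. How often fold enrichment was without overlap among all shared regions was not counted. Over all regions shared by the 6 libraries the median fold was 20.6, 17.2 and 29.7 in Yorkshire 1, 2 and 3. In Wannanhua 1, 2 and 3 it was 17.6, 15.4 and 14.9.

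The widest shared regions were of another kind. Of the 10 widest, 9 lay in the last 20 Mb, and the mean fold enrichment of the 10 was 5.11 to 9.44. The region from 217640807 to 217646950 (6144 bp) held 65, 200 and 50 tags in Yorkshire 1, 2 and 3 and 240, 484 and 395 in Wannanhua 1, 2 and 3. The called length was 1045, 3189 and 940 bp in Yorkshire against 3806, 5015 and 6144 bp in Wannanhua. The breeds thus did not overlap in raw tags or in called length. With tags scaled to library size, 7.59% of shared chromosome 13 regions were higher in Wannanhua without overlap, against 11.4% over the 5 chromosomes. The region was not among the 26 that passed the test of tags given below.

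The end of the chromosome was one of its dense zones, with 83.4 peaks per Mb from 200000001 onwards against 80.9 from 20000001 to 40000000 (means of the 6 libraries). The last 20 Mb held 1675, 1995 and 1542 peaks in Yorkshire 1, 2 and 3 and 1088, 1787 and 1692 in Wannanhua 1, 2 and 3, while the first 20 Mb held 1216, 1332 and 1022 and 653, 1173 and 1131. The last 20 Mb had more in 6 of 6 libraries, by 1.51 times on average and by 0.59 ± 0.087 on the log2 scale. The two-sided exact sign-flip permutation p was 0.03125, the smallest that 6 libraries allow. The zones were chosen with earlier results of these data known, and all libraries follow 1 profile. The contrast is therefore a description, to which this p adds no support. The ratio was 1.46 ± 0.0728 in Yorkshire and 1.56 ± 0.0913 in Wannanhua (SD, n = 3, exact permutation p = 0.3). With a score of at least 100 the log2 ratio was 0.22, above 0 in 4 of 6 libraries (exact p = 0.156). Peaks of the end zone were weaker than the others: their median fold enrichment was 11.8, 9.72 and 17.2 in Yorkshire and 11.3, 9.27 and 9.58 in Wannanhua, below the 16.3, 13.4 and 26.4 and the 17.1, 12.4 and 12.5 of the rest of the chromosome.

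Towards the very end the number of peaks stopped rising while the peaks grew wide. The window from 214000001 had 107 peaks with a median width of 569 bp, and that from 217000001 had 92.5 peaks with a median width of 1184 bp (means of the 6 libraries). Peaks covered 12% of the latter window and 7.37% of the former. Peaks of at least 2500 bp were nearly confined to this zone and to 4 libraries: 30 of 32 in Yorkshire 2, 16 of 17 in Wannanhua 1, 69 of 74 in Wannanhua 2 and 58 of 63 in Wannanhua 3 lay in the last 20 Mb, whereas Yorkshire 1 and Yorkshire 3 had 1 each on the whole chromosome and none there. These 2 libraries were also those with the shortest fragments.

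Counted over the whole chromosome, no breed difference in the amount of chromosome 13 enrichment passed its test. Yorkshire had 61.4 ± 8.44 peaks per Mb and Wannanhua 52.9 ± 14.3 (SD, n = 3, two-sided exact permutation p = 0.6, where 3 against 3 cannot give less than 0.1). Chromosome 13 held 24.9, 24.6 and 24.3% of the peaks of Yorkshire 1, 2 and 3 on the 5 chromosomes and 23.8, 24.3 and 24.4% of those of Wannanhua 1, 2 and 3 (exact permutation p = 0.2). The tags in chromosome 13 peaks were 2.43, 2.53 and 2.51% of the filtered tags in Yorkshire and 1.73, 2.38 and 2.32% in Wannanhua. This measure did not overlap between the breeds, but it reached no more than the smallest p the design allows (exact p = 0.1, n = 3 per breed), and the lowest adjusted p over 8 such measures was 0.4. Among peaks with a score of at least 100, the chromosome 13 share was 27.8, 26.8 and 27.5% in Yorkshire and 25.5, 25.7 and 25.4% in Wannanhua (exact p = 0.1), again without overlap, whereas among peaks of at least 400 bp it was 1.58 percentage points higher in Wannanhua (exact p = 0.5).

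No window passed the test of its share of peaks between the breeds. By limma on the log2 share of a library's peaks, 0 of the 219 windows passed an adjusted p of 0.05, as did 0% of the 765 windows of the 5 chromosomes. At an unadjusted p under 0.05 there were 23 of 219 (5 of them higher in Wannanhua) and 77 of 765. The window furthest below 0, from 174000001 to 175000000, had 42, 37 and 35 peaks in Yorkshire 1, 2 and 3 and 16, 32 and 28 in Wannanhua 1, 2 and 3 (log2 difference of Wannanhua minus Yorkshire -0.41, SE 0.13, limma adjusted p = 0.441). The window furthest above 0 was the last of the chromosome, from 218000001, with 59, 69 and 63 peaks in Yorkshire and 64, 71 and 70 in Wannanhua (0.32, SE 0.14, limma adjusted p = 0.476). Wannanhua 1, which had the fewest peaks on the chromosome as a whole, had 64 in that window against 63 in Yorkshire 3. The count was 8 (3.65%, against 7.46% of all windows) with a score of at least 100 and 3 (1.37% against 4.97%) with equal numbers of top peaks. With tags in place of peaks it was 90 (41.1% against 39.5%), of which 84 were higher in Yorkshire. The median over all windows was then -0.26, and -0.31 on chromosome 13.

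A small number of regions were called in a single breed. In Yorkshire 277 regions had a peak in all 3 libraries and none in Wannanhua, which was 1.31% of the chromosome 13 regions against 1.47% over the 5 chromosomes. In Wannanhua there were 121, or 0.574% against 0.798%. Both shares on chromosome 13 were below that background, but for Yorkshire this turned with the choice of peaks. With the 33496 top-scoring peaks of each library the counts were 245 in Yorkshire (1.64%, background 1.52%) and 214 in Wannanhua (1.44%, background 1.94%). With a score of at least 100 they were 274 (2.38%, background 2.14%) and 68 (0.591%, background 0.983%), so the ratio of the breeds also depended on the peaks taken.

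The 2 sets were spread differently along the chromosome. The last 20 Mb held 14.5% of all regions, 57 of the 277 found in Yorkshire alone (20.6%) and 32 of the 121 found in Wannanhua alone (26.4%). Dense islands held 19.4% of all regions, 19.1% of the Yorkshire set and 44 of the Wannanhua set (36.4%). Regions called in all 6 libraries were fewer there, with 9.33% in the last 20 Mb. The difference between the sets was not tested, since neighbouring regions are not independent. Many such regions had a close counterpart: a peak of the other breed began within 1000 bp of 66 Yorkshire regions (23.8%) and 33 Wannanhua regions (27.3%), and lay beyond 10000 bp for 40 and 11.

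Regions found in a single breed had lower folds than shared ones. The median fold enrichment of the Yorkshire set was 13.1, 11.1 and 21.6 in Yorkshire 1, 2 and 3, whereas the regions shared by the 6 libraries had 20.6, 17.2 and 29.7. That of the Wannanhua set was 14.3, 10.2 and 10.1 in Wannanhua 1, 2 and 3, where the shared regions had 17.6, 15.4 and 14.9. Presence in few libraries was part of how these sets were chosen, so weaker peaks are a description here.

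The 10 Yorkshire regions with the highest mean score had a median width of 418 bp and mean folds of 21.6 to 31.0, and 1 of them lay in the last 20 Mb. The region from 127175872 to 127176260 held 18, 29 and 12 tags in Yorkshire 1, 2 and 3 (fold enrichment 25.04 ± 3.41, SD, n = 3). It stayed in Yorkshire alone under each of 4 other ways of choosing or joining peaks, although a Wannanhua peak lay 726 bp away. Some of these ways keep peaks by their score, by which the 10 regions were picked, so staying is a description only. The region from 88774305 to 88774709, 15, 21 and 9 tags deep and 24104 bp from the nearest Wannanhua peak, was the most isolated of the 10 and also stayed under all 4. The region from 165376531 to 165376923, with 13, 20 and 18 tags and 15081 bp to the nearest Wannanhua peak, did so too. The median chromosome 13 peak held 17, 21 and 13 tags in Yorkshire 1, 2 and 3, so these were peaks of ordinary size.

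The 10 Wannanhua regions with the highest mean score were wider, with a median of 1059 bp, and had mean folds of 7.87 to 22.9, and 4 of them lay in the last 20 Mb. The region from 132786163 to 132786888 held 25, 31 and 40 tags in Wannanhua 1, 2 and 3 (fold enrichment 22.7 ± 3.40, SD, n = 3) and stayed in Wannanhua alone under all 4 other choices, with a Yorkshire peak 598 bp away. In the end zone the region from 213556057 to 213557189 held 21, 56 and 39 tags, also stayed under all 4, and lay 2031 bp from a Yorkshire peak. The most isolated of the 10, from 55180969 to 55181638 and 22930 bp from a Yorkshire peak, held 13, 19 and 31 tags and stayed under 2 of the 4. These 10 were also picked by score, so staying is a description here too. The isolated region thus held fewer tags in each library than the printed region of the end zone. It was near the median chromosome 13 peak, which held 13, 24 and 22 tags in Wannanhua 1, 2 and 3.

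Tags were compared between breeds in the 5060 regions called in all 6 libraries. By edgeR's quasi-likelihood test 26 of them (0.514%) passed an adjusted p of 0.05, against 0.694% of the 19161 such regions of the 5 chromosomes. There were 20 with more tags in Wannanhua (0.395%, background 0.543%) and 6 with more in Yorkshire (0.119%, background 0.151%), all below the background. Without overlap between the breeds in CPM (tags scaled to library size by the TMM method over the tested regions), 384 regions were higher in Wannanhua (7.59%, background 11.4%) and 640 in Yorkshire (12.6%, background 10.5%). The median log2 fold change (Wannanhua over Yorkshire in all that follows) was -0.09 on chromosome 13, against -0.04 over all tested regions. The number of calls depended on single libraries: 0 regions passed when Yorkshire 1 was left out, 308 when Yorkshire 2 was and 12 when Yorkshire 3 was. Leaving out Wannanhua 1, 2 or 3 gave 6, 0 and 1. The 10 named regions higher in Wannanhua had a median log2 fold change of 1.62 with all libraries. It was 1.47 without Yorkshire 1, 2.17 without Yorkshire 2 and 1.67 without Wannanhua 2. The 6 higher in Yorkshire had -1.10, -1.14, -1.13 and -1.17 in the same order. These regions were picked by their folds in these same libraries, so folds that stay large after an omission are a description only. When only library size was used for scaling, 38 passed, 18 towards Wannanhua and 20 towards Yorkshire, with a median over all regions of -0.16.

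**Figure D4:**
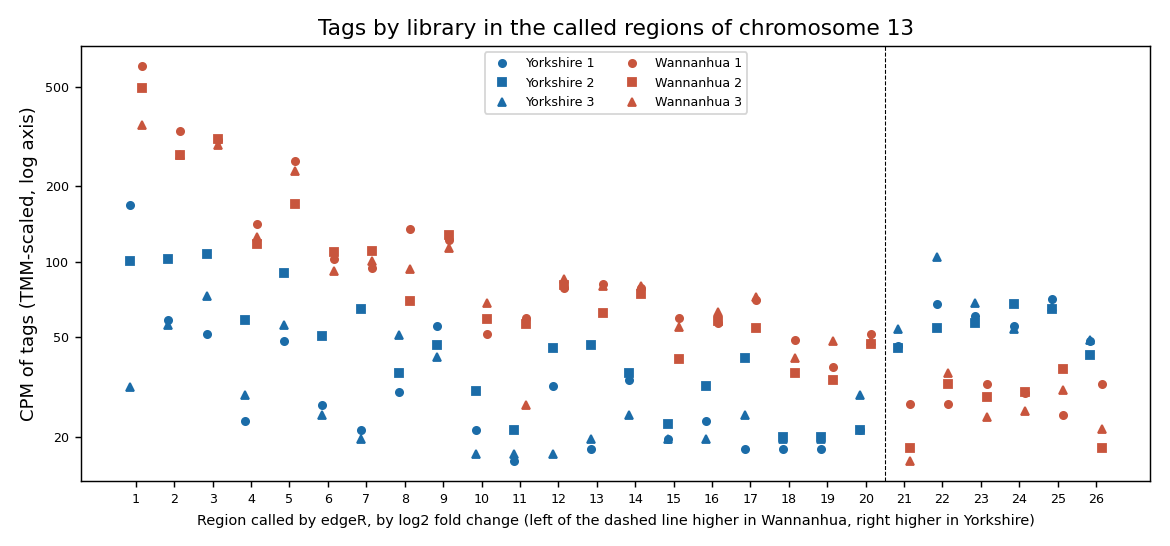
CPM of tags by library (vertical axis, log scale, TMM-scaled) in each of the 26 chromosome 13 regions that passed edgeR's test (horizontal axis, ordered by log2 fold change), with 20 higher in Wannanhua left of the dashed line and 6 higher in Yorkshire right of it. In each region the points of the breeds do not overlap, and Yorkshire 2 is often the Yorkshire library nearest to Wannanhua on the left.

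The regions with more tags in Wannanhua were wide and were called over a longer stretch in that breed. Their median width was 1335 bp against 727 bp for all regions tested, their log2 fold changes were 1.05 to 2.25, and 7 of 20 (35.0%) lay in the last 20 Mb against 9.33% of those tested. The called length was longer in Wannanhua in 20 of 20, by a median of 2.17 times (1.49 to 3.25). The fold in tags per kb of called length had a median of 1.18 (0.973 to 1.84), above the 0.729 of all chromosome 13 regions tested. Away from the last 20 Mb the median ratio of called length over all tested regions was 1.25. The 20 regions were picked by their tags, and the tags of a library are its called length times its tags per kb. High ratios in these 2 measures thus follow from the choice and are a description.

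Near the chromosome end, the region from 217523189 to 217526450 held 33, 77 and 23 tags in Yorkshire 1, 2 and 3 and 123, 222 and 199 in Wannanhua 1, 2 and 3. These were 72.3 ± 25.9 CPM against 289 ± 38.5 (SD, n = 3), which made the log2 fold change 1.97 (SE 0.42, edgeR adjusted p = 0.0217). The called length there was 974, 1242 and 576 bp in Yorkshire against 2985, 2909 and 3183 bp in Wannanhua, and per kb the fold was 1.20. The region from 218100876 to 218104122 held 29, 81 and 30 tags against 113, 258 and 219 (log2 fold change 1.95, SE 0.43, edgeR adjusted p = 0.0238), at a fold per kb of 1.38. Of the 6 regions with a log2 fold change above 1.5, 4 lay in the last 20 Mb.

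Away from the end, the region from 155134336 to 155136093 had the largest difference. It held 13, 44 and 12 tags in Yorkshire and 52, 98 and 94 in Wannanhua, or 36.9 ± 18.8 CPM against 128 ± 11.7 (log2 fold change 1.73, SE 0.35, edgeR adjusted p = 0.0183). The called length was 479, 1204 and 330 bp in Yorkshire against 1331, 1742 and 1590 bp in Wannanhua, and the fold per kb was 1.36. In the region from 141672189 to 141673742, with 15, 38 and 10 tags against 38, 91 and 69, the log2 fold change was 1.52 (SE 0.32, edgeR adjusted p = 0.0212) and the fold per kb 1.61. Both lie outside the end zone, and in both the breeds did not overlap in CPM, while called length and tags per kb were higher in Wannanhua on average. The CPM per kb was 61.8 ± 23.2 in Yorkshire and 84.2 ± 19.6 in Wannanhua in the first region. In the second it was 59.4 ± 9.07 and 95.7 ± 38.5 (SD, n = 3). The values per kb were not tested.

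In the 6 regions that were higher in Yorkshire the called length in Wannanhua was 0.734 to 1.14 times that in Yorkshire, and none lay in the last 20 Mb. Their log2 fold changes were -1.31 to -1.04, and their median width was 683 bp. The fold per kb was 0.365 to 0.616, where the median of all chromosome 13 regions tested was itself below 1, at 0.729. The region from 137193916 to 137194413 held 26, 34 and 22 tags in Yorkshire 1, 2 and 3 and 10, 15 and 12 in Wannanhua 1, 2 and 3, although the Wannanhua libraries 2 and 3 were deeper than Yorkshire 1 and 3. This was 48.4 ± 4.62 CPM against 20.4 ± 5.89 (log2 fold change -1.31, SE 0.26, edgeR adjusted p = 0.0183), and the mean called length was 365 bp in Yorkshire against 416 bp in Wannanhua. The region from 12170857 to 12171347 held 34, 43 and 28 tags against 12, 24 and 18 (-1.13, SE 0.25, edgeR adjusted p = 0.0268), and the mean called lengths were 402 and 409 bp. In these 2 regions the difference lay in the density of tags at nearly equal length.

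Beyond single regions, the tag difference rose steeply over the last few Mb. In 20 Mb bins along the chromosome the median log2 fold change was -0.19 to -0.06 in each of the 10 bins before 200000001, and 0.14 in the last bin, where 60.3% of 443 regions were above 0. In steps of 2 Mb counted back from the last peak, the median was 0.89 in the last 2 Mb (63 regions, 60 of them above 0), 0.61 in the 2 Mb before (49 regions, 43 above 0), 0.27 and 0.23 in the next 2 steps, and -0.07 at 8 to 10 Mb from the end. It was 0.15 at 10 to 12 Mb (24 of 41 regions above 0) and 0.01 at 12 to 14 Mb. From 14 Mb inwards it was -0.12, -0.18 and -0.23 in the 3 steps up to 20 Mb, and -0.10 in the 4588 regions of the rest of the chromosome. The medians were highest in the last 4 Mb and fell unevenly towards that of the rest over the next 10 Mb, and the 7 regions of the end zone that passed in favour of Wannanhua lay within 8 Mb of the end. These steps were chosen after the data had been seen and carry no test.

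**Figure D5:**
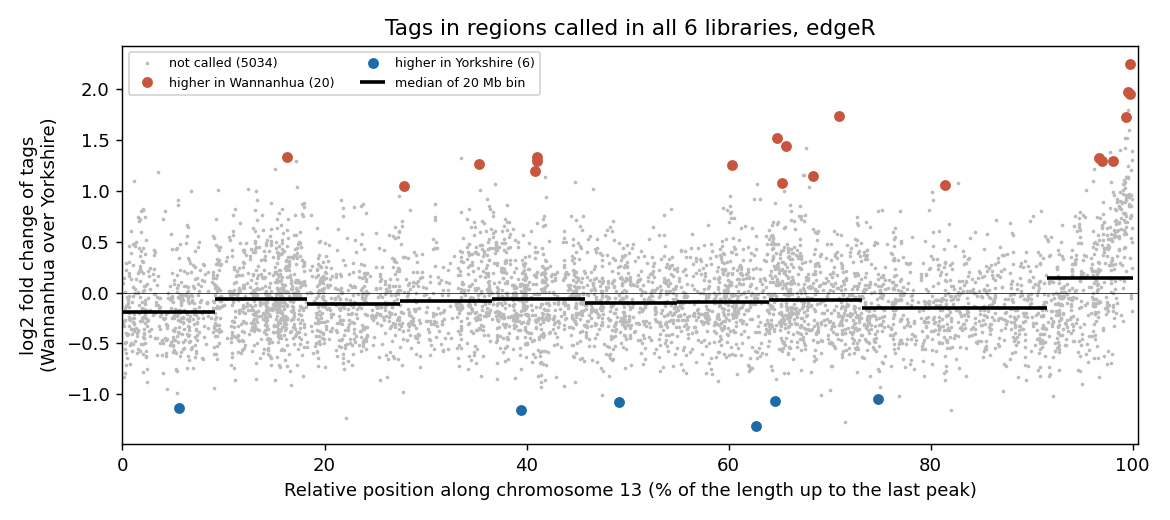
log2 fold change of tags, Wannanhua over Yorkshire (vertical axis, edgeR), in each of the 5060 chromosome 13 regions called in all 6 libraries, by position as a percent of the length up to the last peak (horizontal axis); coloured points passed the test and black bars are medians of 20 Mb bins. The bars lie between -0.19 and -0.06 except for the last, at 0.14, and the points climb over the last few percent, where 7 of the 20 regions higher in Wannanhua lie.

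The rise was not equal in all libraries. Relative to the mean of the 6 libraries on the log2 CPM scale, the median region of the last 2 Mb was at -0.59, 0.03 and -0.80 in Yorkshire 1, 2 and 3 and at 0.55, 0.50 and 0.40 in Wannanhua 1, 2 and 3. In the rest of the chromosome these medians were 0.07, 0.01 and 0.11 in Yorkshire and -0.02, -0.03 and -0.05 in Wannanhua. The breeds did not overlap in the last 2 Mb, and Yorkshire 2, the Yorkshire library with the longest fragments, lay between Yorkshire 1 and 3 and the Wannanhua libraries. The median of the last 2 Mb was 0.76 without Yorkshire 3, 1.21 without Yorkshire 2, 0.79 without Wannanhua 1 and 0.77 with scaling by library size alone.

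Called length differed between the end and the rest as well. The median region of the last 2 Mb was 2215 bp wide against 717 bp in the rest, and its called length was 1.56 times as long in Wannanhua as in Yorkshire, against 1.25 times in the rest. Per kb of called peak the median fold was 1.13 in the last 2 Mb and 0.722 in the rest. With called length as an offset in the edgeR fit the medians were 0.20 and -0.44, and with the fragment length of the library as a covariate 0.49 and -0.03. The last 2 Mb thus lay above the rest in both fits, and since fragment length does not overlap between the breeds, its part cannot be told apart from breed. With the covariate 1 region of the chromosome passed the test and with the offset 2 did, and none of these was among the 26. With the covariate the 10 named regions higher in Wannanhua had log2 fold changes of 0.52 to 1.87 (median 1.36), and the 6 higher in Yorkshire -1.26 to -0.52. With the offset the 10 had 0.01 to 0.97 (median 0.28), where the median over chromosome 13 was -0.42, and the 6 had -1.50 to -0.74.

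The 2 ends of chromosome 13 had opposite signs. The first 2 Mb of chromosome 13 had a median log2 fold change of -0.25 (48 regions), against the 0.89 of its last 2 Mb. On chromosome 1 the first and last 2 Mb were both above 0, at 0.61 and 0.67, as they were on chromosome 11 (0.65 and 0.66) and chromosome 12 (0.87 and 0.43), while chromosome 10 had 0.15 and -0.12. The ends of chromosome 10 thus also had opposite signs, by a smaller difference, and the difference between the ends of chromosome 13 was not tested.

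Per library, the last 20 Mb held 14.8, 19.3 and 14.3% of the chromosome 13 tags in Yorkshire 1, 2 and 3 and 23.7, 21.3 and 21.2% in Wannanhua 1, 2 and 3, counting every peak and not only shared regions. The means were 16.1 ± 2.76% and 22.1 ± 1.39% (SD, n = 3, exact permutation p = 0.1, the smallest possible, and adjusted p 0.257 over 9 measures chosen after the data had been seen). The share of peaks was 12.4, 13.1 and 13.4% in Yorkshire and 13.6, 13.03 and 12.99% in Wannanhua (exact permutation p = 0.6). The breeds therefore did not overlap in the share of tags that lay in the end zone and overlapped in the share of peaks. Leaving out any 1 library gave a difference in the share of tags of 5.01 to 7.52 percentage points.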

How the data were processed

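MeDIP-seq peak lists of 6 longissimus dorsi libraries, 3 per breed, were analysed. Per the file headers the authors called peaks in each library separately with MACS, version 1.4.2 in 5 of 6 headers, without a control, at a p cutoff of 1.00e-05 with at most 1 tag per position. Neither aligner nor genome build is given in the sources used here. Each peak has, in the deposited lists, a tag count without normalization, a fold enrichment that is the authors' ratio to local background, and a score that rises with the significance of the peak. Fold and score, both computed by the authors, served to describe, rank or filter peaks. Copy number and mappability stay uncorrected without a control. Each list stops at 65516 peaks, and chromosomes 1, 10, 11, 12 and 13 are complete in all 6.

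Peaks of chromosome 13 were merged at 1 bp overlap. Coordinates are those of the lists, counted from 1, and peaks were not assigned to genes because no gene table or genome of their build was used. Measures with a single value for each library were tested by exact permutation, two-sided. Tags in regions called in all 6 libraries were tested with edgeR 4.0.16 (quasi-likelihood, robust, TMM, filterByExpr, which removed 0 regions) over all 19161 such regions of the 5 chromosomes, and log2 shares of peaks per window, with 0.5 added to each number of peaks, with limma 3.58.1 over 765 windows holding a mean of at least 5 peaks, both in R 4.3.3 with Benjamini-Hochberg adjustment at 0.05 over all of them. Both fits were first tested on simulated data. DESeq2 1.42.0 was an alternative, beside other scalings, filters, score cutoffs, ways of joining peaks and leaving out each library. Other steps used Python 3.11.15, scipy 1.17.1 and pandas 2.3.3.

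Chromosome 13, its zones, the lists and the tests were chosen with earlier results of these data known. The 2 Mb steps, the shares of the last 20 Mb by library, the wide peaks and the regions with the most tags were added after these tables had been seen. The regions named were the 10 per breed with the highest mean score among those in a single breed, up to 10 per direction by log2 fold change among those that passed the test, the 10 strongest and 10 widest in all 6 libraries, and the 10 densest and 10 sparsest windows and longest gaps; those that a statement turns on are printed.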

Additional observations from a re-analysis of the deposited data

How the results depend on the processing

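Over the alternatives tried, 44 of 86 values kept their direction and their side of the threshold or, for a count, stayed within 1.5 times. Among peaks of at least 400 bp the breed difference reversed, to 12.97 peaks per Mb and 1.58 percentage points of share. With a score of at least 100 the difference to chromosome 1 was -0.574 peaks per Mb and the log2 ratio of last to first 20 Mb 0.22 (exact p = 0.156). Leaving out 1 library gave -3.08 to -2.58 and 0.57 to 0.62 for these, the latter with an exact p of 0.0625, the smallest that 5 libraries allow, and for the breed -13.3 to -0.200 peaks per Mb and -0.602 to -0.251 percentage points. It gave 327 to 786 regions in Yorkshire alone and 158 to 476 in Wannanhua alone, as each omission loosens what a region must meet, 0 to 308 regions by edgeR and 0 windows by limma. Regions in Wannanhua alone were 68 with a score of at least 100 and 214 with equal numbers of top peaks. Beside the 26 regions by edgeR, DESeq2 passed 65 (4 higher in Yorkshire, 9 among the 26) of the 589 regions to which it gave an adjusted p, or 11.04% against 13.6% over the 5 chromosomes. The count was 2 with called length as an offset, 1 when fragment length was a covariate and 48 with reciprocal 50% overlap, of which 14 overlapped the 26, and the cause was not tested. Windows that passed by limma were 8 with a score of at least 100, 3 with equal numbers of top peaks and 90 with tags in place of peaks.

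The deviations of same-numbered libraries from their breed means had correlations of -0.01, 0.03 and -0.05. The labels give these libraries no link beyond the number, and a shared batch was not tested. With the replicate number as a block 54 regions passed in place of 26, which included the 26, and 0 windows, and the exact p for peaks per Mb was 0.75 and for the share 0.5, where 3 pairs cannot give less than 0.25.

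Depth limits the smallest peaks, which held 7 tags in Yorkshire 3 and 9 in Wannanhua 1.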

Other observations

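A single stretch of chromosome 13 held far more tags than any other. The region from 87550823 to 87556628 (5806 bp), in the dense window from 87000001, held 1675, 2580 and 1405 tags in Yorkshire 1, 2 and 3 and 1551, 2842 and 2063 in Wannanhua 1, 2 and 3. As CPM of the filtered tags this was 158, 169 and 209 in Yorkshire and 209, 166 and 134 in Wannanhua, or 179 ± 26.7 against 170 ± 37.7 (SD, n = 3, exact permutation p = 0.8). The region with the next highest level, from 217640807 to 217646950, had a mean of 18.8 CPM. The stretch was called over 4964 to 5804 bp in every library and made up 0.578 to 1.21% of all chromosome 13 tags in peaks, but its fold enrichment was 4.25 to 7.04, below the median peak of every library. It was the single one of the 10 widest regions outside the last 20 Mb. Without a control library, copy number and methylation cannot be told apart here.

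A narrow region lay close before it, from 87436222 to 87437045 (824 bp), with 225, 274 and 201 tags in Yorkshire and 109, 254 and 156 in Wannanhua. Its fold enrichment was 22.5 to 46.6, and it had 23.0 ± 6.17 CPM in Yorkshire and 13.2 ± 2.67 in Wannanhua (exact permutation p = 0.1). The breeds did not overlap in that measure, and how many regions did so in it was not counted. All chromosome 13 peaks together held 1.73 to 2.38% of the filtered tags in Wannanhua and 2.43 to 2.53% in Yorkshire, also without overlap. With tags scaled by the TMM method, 12.6% of shared chromosome 13 regions were higher in Yorkshire without overlap. The narrow region was not among the 26 that passed edgeR's test. Both regions were chosen by their tags, after the values had been seen.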
